A study of Mus musculus with 15 samples.

Results

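The contractile genes of smooth muscle were followed in mouse stomach and in stomach tumors through 10 genes listed by name, with earlier results of these data known: Acta2, Actg2, Myh11, Mylk, Smtn, Tagln, Cnn1, Des, Lmod1 and Pln. The count table holds 36144 genes, and all 10 are in it and passed the filter on low counts. RNA was sequenced in bulk from 15 samples: 3 of normal stomach tissue and 3 tumors from each of the antrum, the corpus, and the greater and lesser curvature of the cardia. Every group came from C57BL/6 mice aged 7 to 8 weeks that carried Pou2f3-CreERT, both floxed tumor suppressor alleles (Rb1fl/fl and Trp53fl/fl) and LSL-MycT58A, a form of Myc that Cre switches on. Normal tissue and tumors alike were labelled as tamoxifen-treated, with 50 mg/kg injected into the peritoneum on one day and tissue taken 5 weeks later. Cre was driven by Pou2f3, the transcription factor of tuft cells, which are chemosensory cells of the epithelium. The part of the stomach that gave the normal tissue is not given, and neither is the number of animals. The replicates are called biological, without a statement that each was a separate animal, so the p-values measure the spread between these samples.

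Smooth muscle contracts when calcium entering the cytoplasm binds calmodulin, which turns on myosin light chain kinase. The kinase phosphorylates the light chains of smooth muscle myosin, and the myosin then pulls on filaments of smooth muscle actin that are held in place by dense bodies and by a lattice of desmin. In the stomach these genes are expressed in the muscle layers of the wall, in the thin muscularis mucosae beneath the glands and in the walls of blood vessels. Acta2 and Tagln are also used by pericytes and by activated fibroblasts, whereas Myh11, Smtn, Cnn1 and Actg2 mark differentiated smooth muscle more narrowly. Many of the genes share the transcription factor Srf and its cofactor Myocd.

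Library totals ran from 7957165 counts in lesser curvature 2 to 21564972 in greater curvature 2, and 16224 genes were tested. In a principal component analysis the first component took 46.9% of the variance, and along it greater curvature 2 and corpus 1 fell among the normals, the other 10 tumors beyond them. Myc, the gene of the activated allele, was 2.13 higher in tumors on the log2 scale, with a standard error (SE) of 0.56 (edgeR adjusted p = 0.0158), and missed the threshold without normal 2 (adjusted p = 0.0689) or normal 3 (adjusted p = 0.0754). Floxed Rb1 (-0.22, adjusted p = 0.372) and Trp53 (0.31, adjusted p = 0.377) did not pass the test. Counts over a whole gene need not show the loss of an exon.

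All 10 contractile genes fell in tumors, and every one of the 12 tumors lay below every one of the 3 normals for each of them. The decreases ran from 4.83-fold for Smtn to 51.1-fold for Pln, with a median log2 change of -3.14 over the 10 genes and -0.04 over all tested genes (edgeR, adjusted p = 0.00053 to 0.00744). Over all tested genes, 15.7% fell by the same test, 16.2% rose, and 6.65% had all 12 tumors below all 3 normals in CPM (counts scaled to a library of 1000000). In bulk tissue, fewer smooth muscle cells and less of these transcripts in each cell cannot be told apart. The 10 calls held in each alternative tried, with adjusted p of 0.0335 or less and log2 changes of -6.08 to -1.88. In the deposited TPM values (transcript abundances corrected for length and scaled to 1000000) the median of all genes lay 0.508 higher in tumors than in the scaled counts, and the 10 genes still fell. Greater curvature 2 and corpus 1 were also below all normals for all 10 genes.

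**Figure D1:**
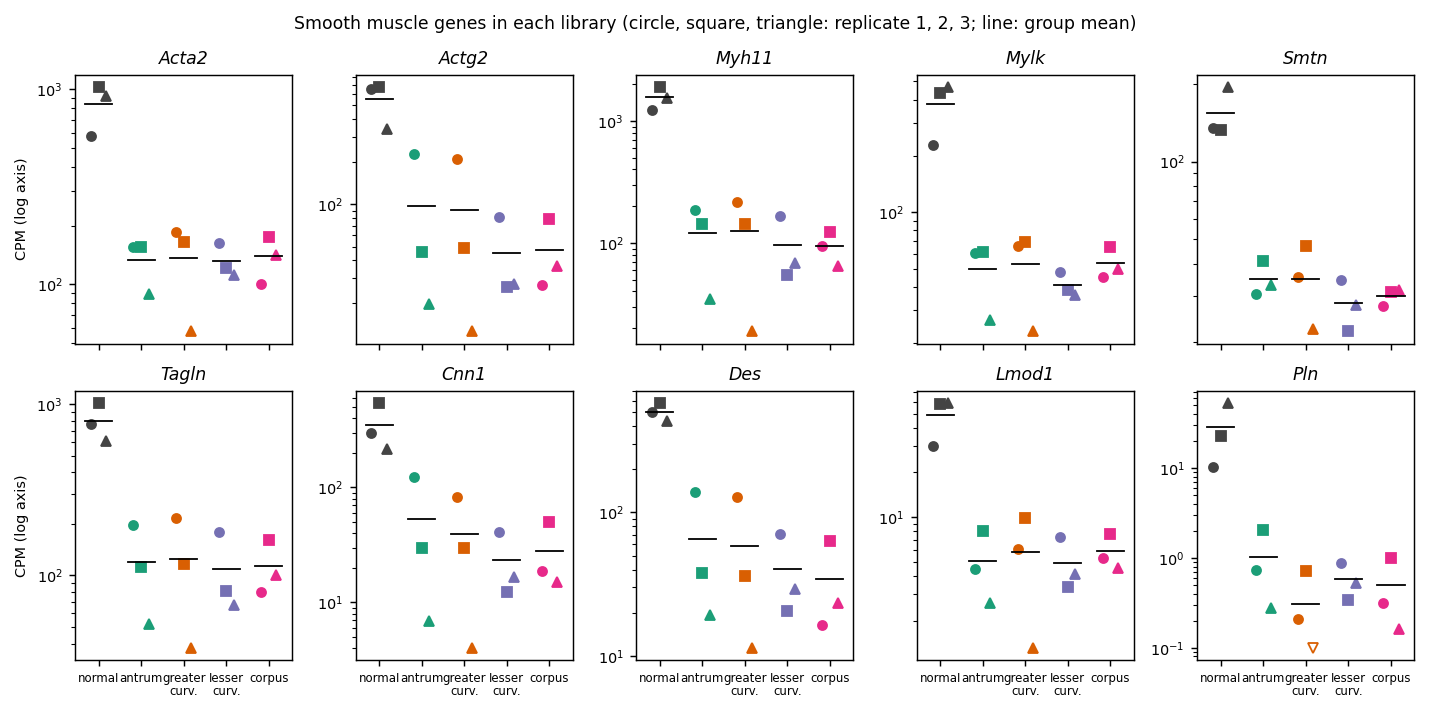
Level of each of the 10 genes in every library, in CPM on a log axis, for the normals and the tumors of the 4 sites; circle, square and triangle are replicates 1, 2 and 3, and the line is the group mean. In every panel the 3 normals lie above all 12 tumors, and the open triangle in the Pln panel stands for a count of 0 in greater curvature 3.

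The actins come first, since they form the thin filaments. Acta2, smooth muscle alpha-actin (chromosome 19, 34241090 to 34255590, minus strand, GRCm38), stood at 579, 1032 and 922 CPM in normals 1, 2 and 3. In the 12 tumors it ran from 57.4 CPM through a median of 148 to 186 CPM. The groups did not overlap: the lowest normal was 3.11 times the highest tumor, and tumors averaged 16% of the normal mean. Acta2 fell by 2.64 on the log2 scale, with a standard error of 0.28 (edgeR adjusted p = 0.00053).

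The start of Acta2 is shown because Srf acts on this gene family through the CArG box, a short element with an A- and T-rich core between CC and GG. The sequence is RefSeq's window of 250 bases before to 50 bases after the gene's start, on the minus strand of GRCm38.p6 at chr19:34255324-34255623, written 5′ to 3′ with CArG-like boxes in capitals.
Acta2: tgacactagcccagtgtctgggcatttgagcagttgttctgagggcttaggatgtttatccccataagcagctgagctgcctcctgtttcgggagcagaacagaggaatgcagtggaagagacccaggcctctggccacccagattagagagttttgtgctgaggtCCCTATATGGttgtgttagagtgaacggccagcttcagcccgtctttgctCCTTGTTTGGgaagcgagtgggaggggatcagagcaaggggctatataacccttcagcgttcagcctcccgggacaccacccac
The capitals mark CCCTATATGG, from 84 to 75 bases before the start, and CCTTGTTTGG, from 34 to 25 bases before it. Both have 5 of 6 A or T bases in the core, a looser form that was searched after the exact box was found in 0 of the 7 windows held by the table for these genes. Acta2 was the only one of the 7 with the looser form, on either strand. The exact box stands in 1.63% of the table's 32851 windows and the looser form in 9.98%. A match is a run of letters and no match says only that these letters are not in the window. Actg2, Myh11 and Tagln were not among the windows. The start used is RefSeq's, and for Acta2 it lies inside the gene's span given above. For Mylk and Smtn the whole window lies inside the span given below, so the sequence before those spans was not searched.

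Actg2, smooth muscle gamma-actin (chromosome 6, 83512905 to 83536265, minus strand), is the main actin of the gut's muscle layers. It stood at 659, 678 and 339 CPM in the normals and at 12.5 CPM (lowest), 40.8 CPM (median) and 227 CPM (highest) in the tumors. Normal 3 was the low normal and antrum 1 and greater curvature 1, at 227 and 209.7 CPM, the high tumors, so that the lowest normal was only 1.49 times the highest tumor. Actg2 fell by 3.09 on the log2 scale, with a standard error of 0.67 (edgeR adjusted p = 0.00744). Of the 31-base words of its transcripts, 1.21% also occur in other genes, and for Acta2 the share is 1.39%, so few words of either gene are shared with the other actins.

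Myh11, the smooth muscle myosin heavy chain (chromosome 16, 14194535 to 14291372, minus strand), had the highest normal counts of the 10 genes. Its normals stood at 1232, 1905 and 1552 CPM and its tumors at 18.8 CPM (lowest), 109 CPM (median) and 215 CPM (highest). The groups lay far apart, with the lowest normal at 5.73 times the highest tumor, and the tumor mean was 6.99% of the normal mean. Myh11 fell by 3.85 on the log2 scale, with a standard error of 0.51 (edgeR adjusted p = 0.00116).

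Mylk, the calcium- and calmodulin-dependent kinase of the myosin light chains (chromosome 16, 34745210 to 35002420, plus strand), stood at 228, 436 and 468 CPM in the normals. The tumors held 23.1 CPM at the lowest, 48.7 CPM at the median and 69.8 CPM at the highest. It fell by 2.95 on the log2 scale, with a standard error of 0.29 (edgeR adjusted p = 0.00053), and its tumors were close to each other, with a 3.02-fold range against 11.5-fold for Myh11.

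Smtn, smoothelin, an actin-binding protein of contractile smooth muscle (chromosome 11, 3517523 to 3540612, minus strand), had the smallest decrease and the tightest tumors. Normals stood at 135, 132 and 195 CPM, and tumors ran from 21.9 to 47.1 CPM around a median of 31.5 CPM, a 2.15-fold range. It fell by 2.27 on the log2 scale, with a standard error of 0.19 (edgeR adjusted p = 0.00053). Lesser curvature 2 was its lowest tumor, whereas greater curvature 3 was the lowest for each of the other 9 genes.

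Tagln, transgelin or SM22, which bundles actin (chromosome 9, 45929619 to 45936058, minus strand), stood at 762, 1014 and 612 CPM in the normals. In tumors it ran from 37.8 CPM through a median of 106 CPM to 217 CPM in greater curvature 1, with no overlap. It fell by 2.77 on the log2 scale, with a standard error of 0.42 (edgeR adjusted p = 0.00208). The exons of Tagln lie opposite those of Pcsk7 and of the antisense gene Gm48529, and 62.2% of its 31-base words also occur in another gene's transcripts. With the use of strand in counting not given in the sources used here, reads from the 58.2% of words shared with Gm48529 cannot be assigned to Tagln alone. The count table does not list Gm48529. Smtn, Mylk and Des also have exons opposite those of other genes, with smaller shares of shared words (12%, 5.5% and 5.3%).

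Cnn1, calponin, which binds actin and slows the myosin motor (chromosome 9, 22099216 to 22109630, plus strand), had the widest fold range among tumors of the 9 genes with counts in every tumor. Its normals stood at 296, 542 and 216 CPM, and its tumors at 4.03 CPM (lowest), 24.4 CPM (median) and 123 CPM (highest, in antrum 1), a 30.5-fold range. The groups did not overlap, by a factor of 1.75. Cnn1 fell by 3.36 on the log2 scale, with a standard error of 0.71 (edgeR adjusted p = 0.00641).

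Lmod1, leiomodin, which starts new actin filaments in smooth muscle (chromosome 1, 135324807 to 135368065, plus strand), was a low-abundance member. It stood at 30.4, 57.8 and 58.9 CPM in the normals and at 1.31 CPM (lowest), 4.92 CPM (median) and 9.88 CPM (highest) in the tumors. Normal 1 was the low normal, 3.08 times the highest tumor. Lmod1 fell by 3.18 on the log2 scale, with a standard error of 0.42 (edgeR adjusted p = 0.00108).

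Des, desmin, the intermediate filament that ties the contractile lattice together (chromosome 1, 75360329 to 75368579, plus strand), had the most even normals, at 499, 579.6 and 434 CPM. Tumors ran from 11.4 CPM through a median of 32.7 CPM to 139.9 CPM in antrum 1. Des fell by 3.39 on the log2 scale, with a standard error of 0.60 (edgeR adjusted p = 0.00347). Desmin is shared with striated muscle, whose marker sums are given further on.

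Pln, phospholamban, which inhibits the calcium pump of the sarcoplasmic reticulum (chromosome 10, 53337667 to 53345987, plus strand), had the deepest decrease and the fewest counts. The normals stood at 10.4, 22.9 and 53 CPM, a 5.08-fold range among themselves, and the tumors at 0 to 2.04 CPM with a median of 0.431 CPM. In counts this was 142, 263 and 693 in the normals, against at most 35 in a tumor (antrum 2). Greater curvature 3 had a count of 0, which allows up to 0.157 CPM by counting error. Pln fell by 5.68 on the log2 scale, with a standard error of 0.67 (edgeR adjusted p = 0.000741), and its log2 change ran from -6.08 to -3.23 over the alternatives. Its exons lie opposite those of Cep85l and Gm47644, and 59.5% of its 31-base words also occur in another gene, so with strand unknown its level is uncertain.

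Compared with one another per length, in TPM, Tagln (588 ± 157, SD, n = 3), Acta2 (541 ± 167) and Actg2 (449.6 ± 150.1) were the most abundant of the 10 in the normals. Cnn1 (251 ± 124), Myh11 (237 ± 53.6) and Des (173 ± 27.5) followed, then Mylk (87 ± 31.7) and Smtn (76.6 ± 28.4), with Pln (15.8 ± 11.4) and Lmod1 (12.3 ± 4.18) last. Neighbours in this order overlapped in range, except that Des lay above Mylk, and Smtn above Pln, in all 3 normals. In the tumors Tagln (130.1 ± 66.7, SD, n = 12), Acta2 (124 ± 38.7) and Actg2 (83.8 ± 86.6) were again highest, and Pln (0.594 ± 0.5) was last. Together the 10 genes held 2108, 3039 and 2147 TPM in normals 1 to 3. In tumors they held from 161 TPM in greater curvature 3 to 910.4 TPM in antrum 1, so the highest tumor stayed below the lowest normal.

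Each site was then compared with the normals, asking whether the decrease was found at every place in the stomach. All 4 comparisons share the same 3 normals. Against normal, 10 of 10 genes fell in lesser curvature tumors (15.3% of all tested genes did), 7 of 10 in antrum tumors (5.08%), 7 of 10 in greater curvature tumors (2.76%) and 7 of 10 in corpus tumors (1.19%), by edgeR. Acta2, Myh11, Mylk, Smtn, Tagln, Lmod1 and Pln passed at all 4 sites. In this fit Actg2, Cnn1 and Des passed in lesser curvature tumors and missed the threshold at the other 3 sites, and a difference between sites was tested separately. The median log2 change over the 10 genes was -2.83 in the antrum, -2.96 at the greater curvature, -3.47 at the lesser curvature and -3.32 in the corpus, against -0.05, -0.01, -0.05 and -0.03 over all tested genes. At each site all 3 tumors lay below all 3 normals for 10 of 10 genes. Of all tested genes this held for 18.8% in the antrum, 14.7% at the greater curvature, 27.3% at the lesser curvature and 13.4% in the corpus.

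**Figure D2:**
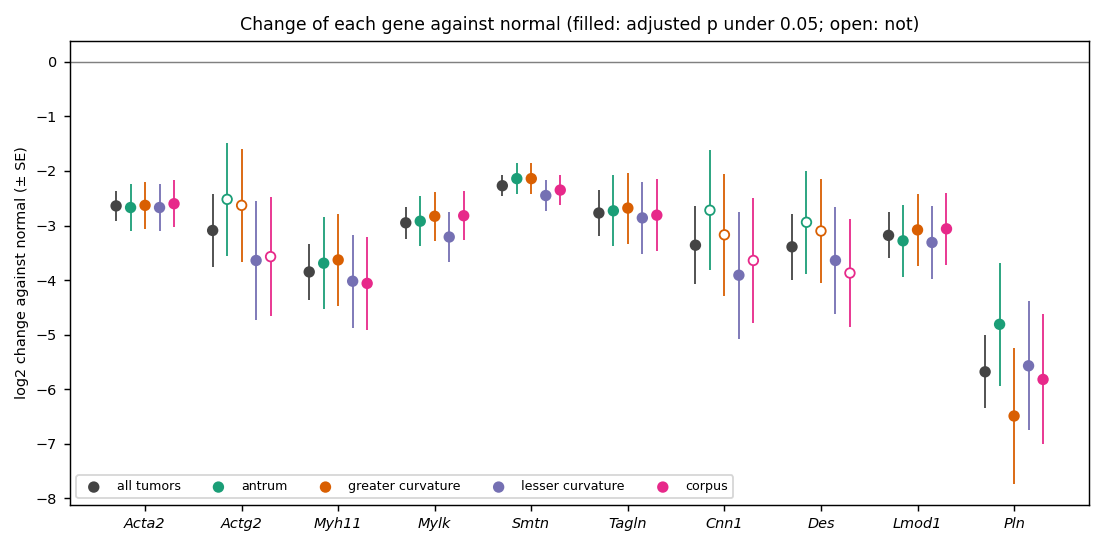
Log2 change of each gene against the normals, for all tumors together and for each site; bars are the standard error from edgeR, and filled points passed an adjusted p of 0.05. All points lie below 0, and the open points belong to Actg2, Cnn1 and Des in the antrum, greater curvature and corpus tumors.

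At the sites where they missed the threshold, these 3 genes varied between tumors of the same site, but such spread was not limited to those sites. At the lesser curvature, where they passed, the SE was similar, at 1.09 for Actg2, 1.16 for Cnn1 and 0.98 for Des. Actg2 ran from 25.7 to 81 CPM in lesser curvature tumors and from 26.7 to 77.8 CPM in corpus tumors, where it missed. Actg2 stood at 227, 45.5 and 19.7 CPM in antrum 1, 2 and 3, and its log2 change was -2.52 (SE 1.04, edgeR adjusted p = 0.112). Its greater curvature tumors held 209.7, 48.7 and 12.5 CPM (-2.63, SE 1.04, adjusted p = 0.111). In both sites replicate 1 was high and replicate 3 low, yet all lay below the lowest normal at 339 CPM. Cnn1 at the antrum stood at 123, 29.8 and 6.83 CPM (-2.72, SE 1.10, adjusted p = 0.106), and Des in the corpus at 16.4, 63.4 and 23.5 CPM (-3.87, SE 0.99, adjusted p = 0.0512). Des fell by less at the lesser curvature, where it passed (-3.64, SE 0.98), than in the corpus. All 10 genes were below p of 0.05 before adjustment at each site. The adjustment was made over all tested genes, of which 1.19% fell in the corpus and 15.3% at the lesser curvature. The part of the adjustment in these misses was not tested.

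With 3 tumors a site, the counts depend on single libraries. The antrum count was 3 without normal 3 or without antrum 3, and 4 without antrum 1. At the greater curvature it was 0 without normal 3, 1 without greater curvature 3, 3 without greater curvature 1 and 4 without normal 2. It was also 0 when only the normals and the greater curvature tumors were fitted, although all 10 genes were under p of 0.05 before adjustment in the model of all samples. In the corpus it was 0 without corpus 3, 1 without corpus 2 or without normal 3, 3 without normal 1 or without lesser curvature 3, and 4 without normal 2. At the lesser curvature it stayed between 7 and 10. DESeq2 on all samples called 10 of 10 at each of the 4 sites.

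Between the 4 sites no difference was detected for any of the 10 genes. The F test among sites called 0 of 10 (lowest edgeR adjusted p = 0.894), with 0 of 10 under p of 0.05 before adjustment, and 0% of all tested genes. By DESeq2 164 genes differed, and 947 were under p of 0.05 before adjustment by edgeR. Set against the other 3 sites, the antrum, greater curvature and corpus tumors each gave 0 of 10 contractile genes and 0% of tested genes, and the lesser curvature tumors 0 of 10 against 0.00616%. A miss with 3 tumors a site does not show equal levels: for Cnn1 the antrum tumors were 0.85 log2 above the other sites with an SE of 0.81. Lesser curvature tumors had the lowest mean for 7 of the 10 genes and antrum tumors the highest for 5. For every gene, neighbouring sites in the order of means overlapped in range.

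Single tumors differed widely, within sites as well as between them. Across the 12 tumors the range was 3.25-fold for Acta2, 5.75-fold for Tagln, 7.55-fold for Lmod1, 12.3-fold for Des and 18.1-fold for Actg2. As a standard deviation of log2 CPM this put Smtn at the 29th percentile of all tested genes and Cnn1 at the 88.9th. Greater curvature 3 was among the 3 lowest tumors for 10 of 10 genes and antrum 3 for 8. Greater curvature 1 was among the 3 highest for 8, and antrum 1, lesser curvature 1 and corpus 2 for 5 each. The greater curvature and the antrum thus each held both high and low tumors.

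The 10 genes did not fall by the same factor. Within a library, the ratio of one gene to another does not depend on scaling between libraries, so each gene was set against Myh11 as the log2 of counts plus 1. The difference in mean log2 ratio between 12 tumors and 3 normals was tested by an exact two-sided permutation over samples, adjusted over the 9 ratios, where 455 assignments allow no p below 0.0022. Acta2 gained 1.44 on Myh11 (2.72-fold, exact permutation p = 0.0022, adjusted p = 0.00989) and exceeded every normal in 12 of 12 tumors. Tagln gained 1.19 (exact permutation p = 0.0022, adjusted p = 0.00989), also in 12 of 12. Smtn gained 1.84 (12 of 12, exact adjusted p = 0.0247), Mylk 1.16 (11 of 12, exact adjusted p = 0.0247) and Lmod1 0.83 (10 of 12, exact adjusted p = 0.0396).

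Actg2 (0.60, exact adjusted p = 0.223), Cnn1 (0.33, exact adjusted p = 0.376) and Des (0.34, exact adjusted p = 0.376) were not shown to depart from Myh11. Pln went the other way, at -1.51 relative to Myh11, with 9 of 12 tumors below all normals and an exact permutation adjusted p of 0.056. The Pln ratio passed without antrum 2 (exact adjusted p = 0.0297) or without greater curvature 1 (exact adjusted p = 0.0453). It weakened to -0.93 without normal 3 (exact adjusted p = 0.33) and to -1.12 in TPM plus 0.1 (exact adjusted p = 0.145). Without normal 1 or without normal 2 the Acta2 and Tagln ratios alone passed (exact adjusted p = 0.0495), while Smtn stood at 0.0659 and Mylk at 0.0989. The Lmod1 ratio missed the threshold without any 1 of the normals (exact adjusted p = 0.0989 to 0.113), with log2 differences of 0.68 to 0.99. It also missed without greater curvature 2 (exact adjusted p = 0.0544), and without greater curvature 2 and corpus 1 together (exact adjusted p = 0.0692). Measured against Acta2 in place of Myh11, 2 ratios passed, Myh11 (-1.44) and Pln (-2.95), both at an exact permutation adjusted p of 0.00989. Acta2 and Tagln are also used by pericytes and activated fibroblasts, whose marker sums follow, and their part in the result was not tested.

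**Figure D3:**
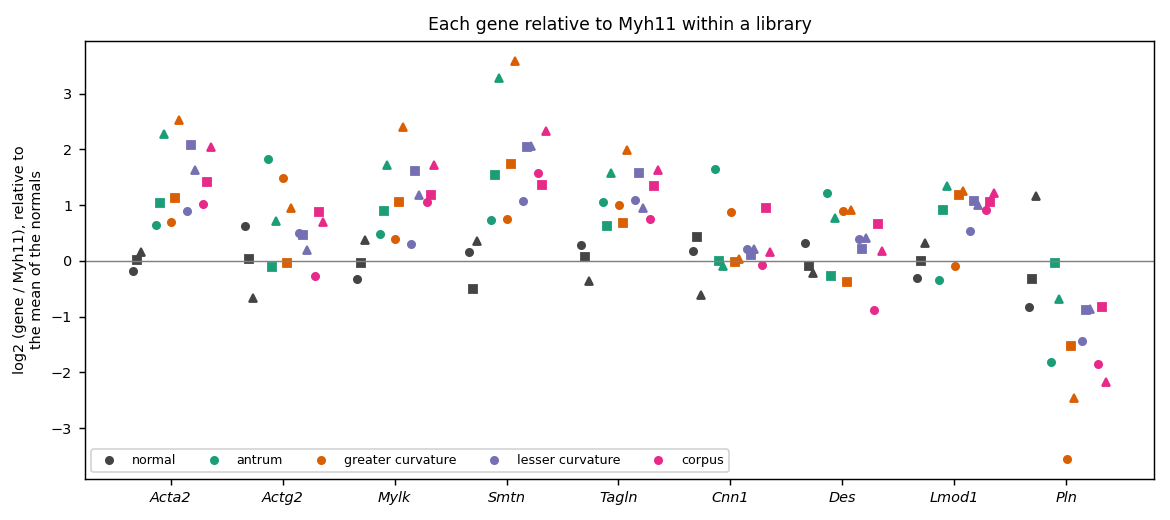
Log2 ratio of each gene to Myh11 in every library, with the mean of the 3 normals set to 0; colors are the groups, and circle, square and triangle are replicates 1, 2 and 3. All 12 tumors lie above the normals for Acta2, Smtn and Tagln, while tumors and normals overlap for Actg2, Cnn1 and Des.

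Actins, myosins, transgelins and calponins also come in forms made by cells that are not smooth muscle, and the shares held by the smooth muscle forms were read in TPM. Acta2 and Actg2 together held 22.3% to 35% of the TPM of 6 actin genes in the normals. In the tumors the share was 2.42% at the lowest, 5.12% at the median and 25% at the highest, and 11 of 12 tumors lay below all normals. Myh11 held 61.8% to 71.1% of the TPM of Myh9, Myh10, Myh11 and Myh14 across the normals and 2.89% to 28.2% across the tumors (median 11.8%, 12 of 12 below). Cnn1 held 49.9% to 76.2% of the 3 calponins in normals and 5.17% to 48.4% in tumors (12 of 12 below). Tagln overlapped, with 35.9% to 52.2% of the 3 transgelins in normals, 5.82% to 60.6% in tumors, and 9 of 12 below.

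Antrum 1, greater curvature 1 and lesser curvature 1 had the highest actin shares among the tumors. They also had the lowest TPM of the other actins, at 1255, 1796 and 1142, against 2332 to 3749 in the remaining tumors. Their summed CPM of 7 epithelial markers was 221, 2464 and 165, against a range of 3800.2 to 11859.9 in the normals. Low epithelial sums also occurred in tumors with small actin shares, at 1742 CPM in lesser curvature 3 (share 6.27%) and 2658 CPM in greater curvature 3 (share 2.65%). The part of these values in the shares was not tested.

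**Figure D4:**
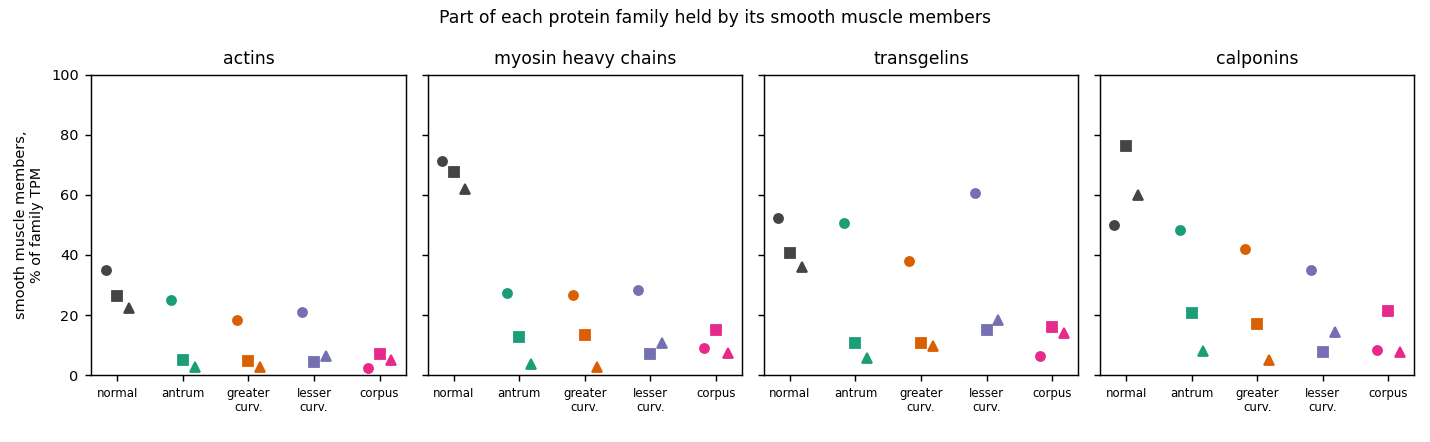
Percent of the summed TPM of each protein family that comes from its smooth muscle genes, in every library; circle, square and triangle are replicates 1, 2 and 3. The tumor shares of the myosin heavy chains and calponins lie below all normals, and the first replicates of the antrum, greater curvature and lesser curvature stand highest among the tumors.

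Of 18 tested relatives of the 10 genes, 1 fell (15.7% of all tested genes did) and 2 rose (16.2%), shares no larger than over all genes, with a median log2 change of -0.27. Myh10, the heavy chain of non-muscle myosin IIB, rose by 2.58 on the log2 scale, with a standard error of 0.51 (edgeR adjusted p = 0.00506), from 13.4 to 32 CPM in normals to 36.1 to 209 CPM in tumors. Tagln3, a transgelin of neurons, rose by 2.73 (adjusted p = 0.0395) and Cnn3, the broadly expressed calponin, fell by 0.74 (adjusted p = 0.0336), and neither was stable. Tagln3 missed the threshold without any of the normals or without greater curvature 1, lesser curvature 1 or 3, or corpus 2 or 3 (adjusted p = 0.0518 to 0.139). Cnn3 missed it without normal 1 (adjusted p = 0.332) or without antrum 3, greater curvature 3, lesser curvature 3, or corpus 2 or 3 (adjusted p = 0.0501 to 0.0553), and in TPM its log2 change was only -0.11. The cytoplasmic actins Actb (-0.37, adjusted p = 0.418) and Actg1 (-0.59, adjusted p = 0.315) did not pass. Nor did the non-muscle forms Myh9 (-0.27), Tagln2 (-1.01) and Cnn2 (-0.28). Myh14 and Myl12b did not pass either. Both fell without greater curvature 2 and corpus 1 together (-1.73, adjusted p = 0.0498, and -0.83, adjusted p = 0.0279). With those 2 libraries left out 3 of the 18 relatives fell, and in TPM 0 fell. In TPM the values of Actb, Myh9 and Cnn2 change sign, to 0.19, 0.24 and 0.14.

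Most other genes of the contractile machinery fell as well. Of 20 tested genes of the contractile apparatus and its regulators, 16 fell (15.7% of all tested genes did) and 0 rose (16.2%), with a median log2 change of -1.54 (edgeR). Myl9, the regulatory light chain that Mylk phosphorylates, fell by 3.18 (SE 0.30, adjusted p = 0.00053), from 292 to 579.6 CPM in normals to 23.5 to 68.1 CPM in tumors. Tpm2, the beta-tropomyosin of thin filaments, fell by 3.14 (SE 0.35, adjusted p = 0.000631), and Pdlim3, a protein of actin anchor sites, by 3.29 (SE 0.39, adjusted p = 0.000722). Flna, the actin cross-linker filamin A, fell by 1.58 (SE 0.15, adjusted p = 0.00053) but stayed at 294 to 469.9 CPM in tumors. By site, 10 of the 20 fell in the antrum (5.08% of all tested genes), 11 at the greater curvature (2.76%), 16 at the lesser curvature (15.3%) and 10 in the corpus (1.19%). The genes of this and the following lists were chosen with earlier results of these data known.

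Among 13 tested genes that control the smooth muscle program, 5 fell (15.7% of all tested genes did) and 2 rose (16.2%), the latter a share near that of all genes (median log2 change -0.99). Srf itself stood at 33.6 to 48.1 CPM in normals and 32.3 to 45.1 CPM in tumors (-0.02, SE 0.13, edgeR adjusted p = 0.919). Its cofactor Myocd, which is specific to smooth and cardiac muscle, stood at 2.35 to 7.65 CPM in normals and 0.262 to 3.3 CPM in tumors. Myocd fell by 1.85 (SE 0.49, adjusted p = 0.0163), a call that leaving out normal 3 ended (adjusted p = 0.128). Barx1, a homeobox factor of the stomach mesenchyme, fell by 2.60 (SE 0.26, adjusted p = 0.00053), from 18.8 to 40.1 CPM in normals to 2.75 to 8.16 CPM in tumors. Foxf1, a forkhead factor of gut mesenchyme, fell by 1.52 (adjusted p = 0.00517). Elk1, which competes with Myocd for Srf, rose by 0.69 (adjusted p = 0.0147). Leaving out normal 2 (adjusted p = 0.0726) or normal 3 (adjusted p = 0.0744) ended that call, and 0 of the 13 then rose. The number that fell was 2 without normal 3, 3 without normal 2 and in TPM, and 8 without greater curvature 2.

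In calcium handling and excitability 7 of 16 tested genes fell and 0 rose, against 15.7% and 16.2% of all tested genes (median log2 change -0.87, edgeR). In TPM 3 rose. Jph2, which ties the sarcoplasmic reticulum to the surface membrane, fell by 2.52 (SE 0.31, adjusted p = 0.00082). Kcnmb1, the smooth muscle subunit of the large calcium-activated potassium channel, fell by 2.15 (adjusted p = 0.00198), Atp2b4, a calcium pump of the surface membrane, by 1.81 (adjusted p = 0.00222) and Stim1, the calcium sensor of the reticulum, fell 2.83-fold (adjusted p = 0.000914).

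For neural and nitric oxide input, 9 of 14 tested genes fell and 0 rose, against 15.7% and 16.2% of all tested genes (median log2 change -1.41, edgeR), and 3 fell in TPM. Tacr2, the receptor of neurokinin A, fell by 5.24 (SE 0.65, adjusted p = 0.000802), from 7.57 to 27.1 CPM in normals to 0 to 0.841 CPM in tumors. Chrm2, a muscarinic acetylcholine receptor of gut muscle, fell by 3.84 (SE 0.44, adjusted p = 0.000706), from 25.9 to 37.7 CPM to 0.783 to 5.6 CPM. Mrvi1, a target of cyclic GMP-dependent kinase, fell by 2.22 (adjusted p = 0.00188). The serotonin receptor Htr2b fell by 1.89 (adjusted p = 0.00966), which was lost without normal 2 (adjusted p = 0.0511).

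Of 11 tested genes of caveolae and of attachment to the matrix, 7 fell and 0 rose, against 15.7% and 16.2% of all tested genes (median log2 change -0.93, edgeR). This was 4 without normal 1 or without normal 2, and 3 in TPM. Cav1, the coat protein of caveolae, fell by 1.78 (SE 0.18, adjusted p = 0.00053). Sgcd, a sarcoglycan of the dystrophin complex, fell 4.57-fold (adjusted p = 0.00697), and its partner Dtna by 1.46 (adjusted p = 0.00506). Dystrophin itself, Dmd, fell by 0.76 (adjusted p = 0.0175), not passing without normal 1 (adjusted p = 0.0961) or in TPM.

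**Figure D5:**
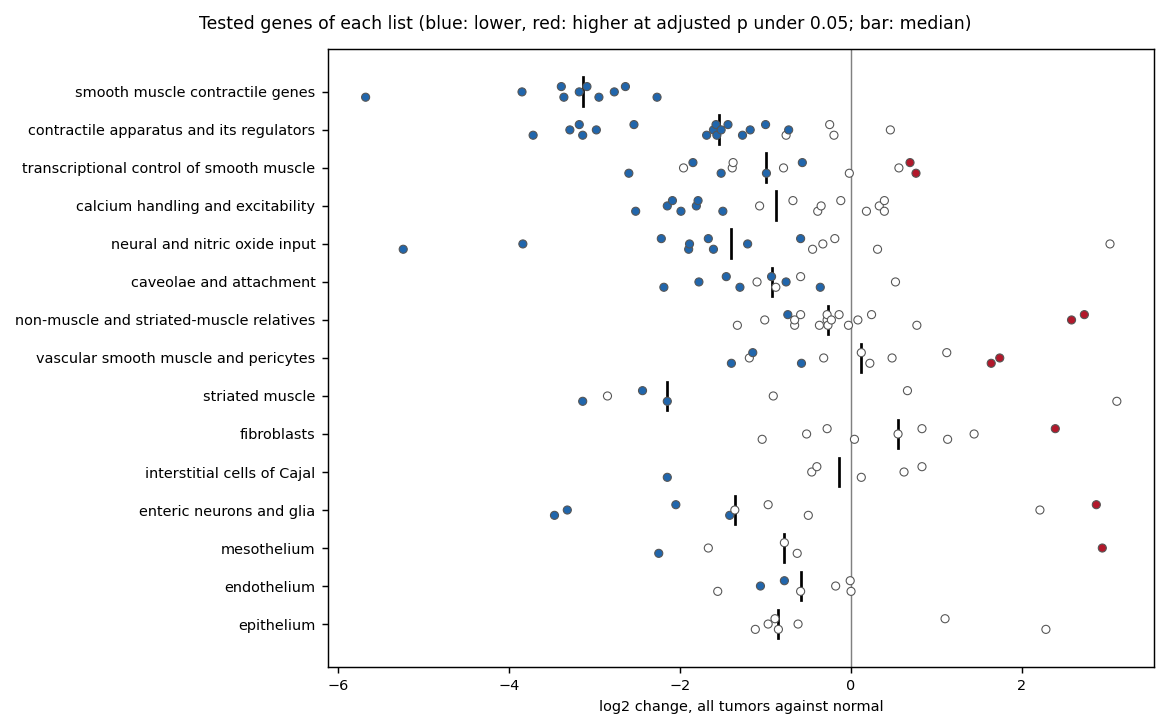
Log2 change in all tumors against normal for each tested gene of the lists, with called genes filled in blue (lower) or red (higher) and the list median as a bar; a list of squamous epithelium is left out. The 10 contractile genes lie between -5.68 and -2.27, and the markers of pericytes, fibroblasts and interstitial cells of Cajal scatter on both sides of 0.

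Markers of other cells that could share the samples were read beside these decreases, with 15.7% of all tested genes falling and 16.2% rising in the same comparison. Vascular smooth muscle and pericyte markers were mixed: of 11 tested, 3 fell (1 without normal 3, 0 in TPM) and 2 rose, with a median of 0.12 on the log2 scale and a summed level of 349 to 560.2 CPM in normals against 190.4 to 598 CPM in tumors. Pdgfrb, the pericyte receptor, rose by 1.64 (edgeR adjusted p = 0.00277), and the Notch target Heyl by 1.74 (adjusted p = 0.0123). Abcc9 (-1.15, adjusted p = 0.00825) and Kcnj8 (-1.40, adjusted p = 0.0104), the subunits of a potassium channel of pericytes, fell, the latter not without normal 3 (adjusted p = 0.0613). Fibroblast markers summed to 776 to 1166 CPM in normals and 734 to 6988 CPM in tumors, with 0 of 9 lower and 1 higher (5 in TPM with the filter on low values, 3 without it). Greater curvature 2 alone gave the 6988 CPM, and the next tumor held 2066 CPM. The gene that rose was Col1a1, by 2.39 (adjusted p = 0.0392), which missed the threshold without any of the 3 normals (adjusted p = 0.0834 to 0.144) or without antrum 3, lesser curvature 3, or corpus 2 or 3 (adjusted p = 0.0528 to 0.0591). Interstitial cells of Cajal, the pacemakers within the muscle, had 1 of 6 markers lower, Prkcq (-2.15, adjusted p = 0.00208). In TPM with the filter on low values 0 were lower. Their sums were 203 to 267 CPM in normals and 161 to 294 CPM in tumors.

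Striated muscle markers summed to 71.9 to 86.3 CPM in normals and 25.4 to 48.3 CPM in tumors. Of 7 tested, 3 fell: Ckm, Myh7 and Myh6. Only 1 of these fell without normal 1, and Myh6 also missed the threshold without normal 3 (adjusted p = 0.0727), while the 10 contractile genes fell whichever normal was left out. Enteric neuron and glia markers fell for 4 of 9 (0 in TPM with the filter on low values, 1 without it) and rose for 1, with sums of 41.9 to 60.7 CPM and 21.3 to 305 CPM. Endothelial markers fell for 2 of 7 (0 in TPM), with sums of 98.1 to 228 CPM and 62.8 to 206 CPM, and mesothelial ones fell for 1 (0 in TPM) and rose for 1 of 5, with sums of 3.01 to 11.9 CPM and 5.1 to 75.2 CPM. Without any 1 normal, 2 enteric markers fell and 0 rose; without normal 1 or 3, 0 endothelial ones fell; without normal 2, 0 mesothelial ones fell or rose. Leaving out single tumors also moved these 3 counts, to 2 to 4 for enteric decreases, 1 or 2 for endothelial ones and 0 or 1 for mesothelial ones. Epithelial markers fell for 0 of 7 and rose for 0 by edgeR (1 rose by DESeq2, and 1 in filtered TPM), with sums of 3800.2 to 11859.9 CPM and 165 to 10656 CPM. Squamous markers, 5 of 7 lower, rested on normal 2, which alone among the normals held 5767 CPM of them (0 fell without it, and 0 in TPM). Normals 1 and 3 held 1.76 and 0.765 CPM. Lesser curvature tumors held 316 to 1711 CPM of these markers, and the tumors of the other sites 0.246 to 100.1 CPM. No marker of these lists was at 0 in all samples, and the part of these cells in the decreases was not tested.

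Of the genes outside the 10, those whose log2 CPM across the 15 samples was most like the mean of the 10 were ranked by Pearson r, as a description. Synm, Myl9, Jph2 and Tpm2 had an r of 0.98, Synpo2 0.97, Myom1 and Popdc2 0.96, and Dmpk, Sntg2 and Tacr2 0.95. All 15 points share the difference between normals and tumors. Over the 12 tumors alone the r of these 10 genes was 0.71 for Dmpk to 0.94 for Myl9. Synm, synemin, which joins desmin filaments to the membrane, stood at 179.9 to 196 CPM in normals and 3.72 to 30.3 CPM in tumors. Myom1, a myosin-binding protein of muscle that no list held, had a mean of 63.5 CPM ± 25.6 (SD, n = 3) among normals, against 7.29 CPM ± 3.7 (SD, n = 12) for tumors.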

How the data were processed

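Groups and replicate numbers came from the sample labels. The authors deposited estimated counts for each gene as whole numbers, made with the tools in the submitters' processing notes: bcl2fastq 2.19, kallisto 0.44.0, sleuth, DESeq2 and GRCm38.p6, with no role or order given. A further table deposited by the authors is named for FPKM, as the design had assumed, but each column sums to 1000000, so it was read as TPM made by the authors. Gene summing, annotation and strand use were not given in the sources used here.

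Counts were fitted in R 4.3.3 with edgeR 4.0.16: filterByExpr (minimum count 10), TMM scaling and 1 robust quasi-likelihood model of all 15 samples by group. P-values were adjusted by Benjamini and Hochberg over 16224 genes and called under 0.05; an adjusted p without a tool is from this fit, and SE is that of its log2 change. Scaled library sizes entered CPM; log2 CPM had 2 as its prior count. The computation was tested on simulated data. Alternatives were DESeq2 1.42.0 (its size factors and its test), no filter, a replicate block, fits of the compared groups only, limma 3.58.1 on log2 of TPM plus 1 or 0.1 (with and without a filter of 1 TPM in 3 samples), and leaving out libraries. Positions are from GENCODE M21 on GRCm38, and promoters from RefSeq.

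The 10 genes and all lists were chosen with earlier results of these data known. Besides the 10, the text names up to 4 genes with the smallest p from each list, all tested relatives that it discusses, the 10 genes most like the 10 members, and Srf, Myocd and the engineered alleles. Counting limits cover counting error only.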

Additional observations from a re-analysis of the deposited data

How the results depend on the processing

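For all tumors against normal the number of contractile genes that fell was 10 in each setting and without any single library. Over all genes the number that fell (2548) was 550, 491 and 606 by limma on TPM (plus 1, plus 0.1, and plus 1 unfiltered, the order used below), and 1321 to 3505 with 1 library left out. Contractile genes that fell at a site with 1 library left out were 3 to 8 in the antrum, 0 to 8 at the greater curvature, 7 to 10 at the lesser curvature and 0 to 8 in the corpus; fitting only the 2 groups gave 0 at the greater curvature, for contractile genes and for all genes (0). Over all genes, antrum decreases (824) were 1822 by DESeq2, 449 unfiltered, 201 in the fit of those groups alone, 304, 281 and 304 by limma, and 122 to 1123 with 1 library out. Greater curvature decreases (448) were 1404 by DESeq2, 227 unfiltered, 231, 197 and 212 by limma, 1642 without greater curvature 2 and corpus 1, and 0 to 1574 with 1 library out. Lesser curvature decreases (2490) were 698, 635 and 611 by limma and 744 to 3196 with 1 library out. Corpus decreases (193) were 920 by DESeq2, 117 unfiltered, 93, 102 and 62 by limma, 401 without the 2 libraries, and 0 to 330 with 1 library out. Among sites, contractile genes that differed were 0 to 0 in all settings and with 1 library out. All genes that differed among sites by the F test (0) were 164 by DESeq2, 12 in the fit of the tumors alone, 3, 1 and 10 by limma, and 0 to 16 with 1 library out. Against the other sites, the antrum (0) gave 71 by DESeq2, 1 with the replicate block, 6 by unfiltered limma and 0 to 1 with 1 library out. The greater curvature (0) gave 26 by DESeq2, 2 by unfiltered limma and 0 to 1 with 1 library out. The lesser curvature (1) gave 249 by DESeq2, 26 with the replicate block, 117 in the fit of the tumors alone, 10, 2 and 22 by limma, 0 without the 2 libraries and 0 to 144 with 1 library out. The corpus (0) gave 68 by DESeq2, 2 by unfiltered limma and 0 to 1 with 1 library out. The ratios to Myh11 that differed (5) were 2 with Acta2 as reference and 2 to 6 with 1 library out. Leaving out a normal raises the smallest p that the permutation allows. The cause of these changes was not tested. With 1 library out, 4 squamous markers reversed without normal 2 and ran from -9.27 to 0.37 (Lor), -7.57 to 3.81 (Krt4), -10.19 to 4.75 (Sprr3) and -5.72 to 7.20 (Krt13); Krt13 also reversed by limma (0.55, 1.75 and 0.55).

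Replicate numbers are shared across groups. Of 30 pairs of samples with the same number, 17 had deviations that correlated over 0.1 (range -0.566 to 0.693). The median correlation was 0.168 for pairs with the same number and -0.0654 for pairs with different numbers. For 10 of 15 samples the mean correlation was highest with the samples of their own number. The main fit did not take the numbers as pairs, and these values do not show that the samples are unpaired. With the replicate block, contractile genes that fell were 10 over all tumors, 10 in the antrum, 10 at the greater curvature, 10 at the lesser curvature and 8 in the corpus. Depth limits Pln most, at 0 to 35 counts per tumor.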

Other observations

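The make-up of the summed TPM of the 10 genes, which was not used in any comparison, was as follows. Acta2 gave 16.7% to 28.1% of the sum among normals and 15.9% to 36.7% among tumors, and Tagln 21.3% to 25.9% and 23.1% to 33.5%. Myh11 gave 8.69% to 11.1% among normals and 2.86% to 7.08% among tumors, so the ranges did not overlap. Pln gave 0.318% to 1.33% among normals and 0% to 0.33% among tumors. Actg2, Cnn1 and Des, which varied most among the tumors, gave 10.4% to 30.0%, 3.36% to 14.2% and 3% to 7.65% of the sum there.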
